A study of Mus musculus with 6 samples.

Results

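The gene expression of Th1 cells was compared with that of the Naive CD4+ T cells from which they were grown, gene by gene, to ask which pathways and gene families differed in either direction besides the interferon response and the Th1 effector genes. The members were chosen by their labels alone: the 2 Naive and the 2 Th1 libraries, 4 of the 6 RNA-Seq libraries of the series. Of 24223 genes listed, 13008 had enough counts to be tested. Naive cells were CD4+CD44- T cells isolated with a magnetic naive T cell kit from pooled lymph nodes and spleens of C57BL/6 mice, 1 to 2 months old, and were not cultured. Th1 cells came from such Naive cells that were activated with anti-CD3 and anti-CD28, either plate-bound and soluble or on beads, in the presence of anti-IL-4, IL-12 and IL-2, and were collected on day 5. The groups therefore differed in activation, culture, exogenous IL-2 and polarization at once, and the parts of these cannot be told apart with these libraries. The replicates are described in the methods as independent biological ones, without saying whether they came from separate mice or only from separate cultures. The p-values rest on the spread between 2 libraries of each group, with 2 residual degrees of freedom per gene. This spread was moderated in edgeR toward the trend over all genes, with 6.96 prior degrees of freedom.

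A naive CD4+ T cell is a small resting lymphocyte that circulates between blood and lymphoid organs and lives mainly on oxidative metabolism. After its antigen receptor is triggered together with CD28, it grows, divides, takes up glucose and builds membrane lipids. IL-12 acting through Stat4, together with interferon gamma, induces T-bet, and the daughter cells become Th1 cells, which help other cells to control intracellular microbes. IL-2 keeps activated cells growing through Stat5.

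Replicate 1 of each group was sequenced more deeply, with 64826757 counts in Naive and 69080017 in Th1, than replicate 2, with 18608805 and 18347752. A level of 3 counts, taken as the limit of detection, stood at 0.0431 and 0.146 CPM in Naive and at 0.0455 and 0.186 CPM in Th1 (CPM, counts per 1000000 counts of the library after scaling by trimmed mean of M values, TMM). Pearson's r of log2 CPM across genes was 0.966 between the Naive libraries, 0.972 between the Th1 libraries, and 0.874 to 0.890 between the groups. The labelled cell types were checked against their markers. The 4 markers of Th1 cultures were higher in both Th1 libraries than in both Naive libraries, and 10 tested members of a list of 13 general T cell markers were not called by edgeR in either direction, 2 of them having an unadjusted p under 0.05. Among these, *Cd4* had 498 and 726 CPM in Naive against 414 and 595 CPM in Th1, and *Cd3e* had 222 and 327 CPM in Naive against 252 and 327 CPM in Th1.

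*Tbx21* encodes T-bet, the defining transcription factor of Th1 cells. It had 22.8 and 20.4 CPM in Naive against 135 and 155 CPM in Th1, a log2 fold change of 2.75 (SE 0.29, edgeR adjusted p = 0.000728). *Il12rb2*, the signalling chain of the IL-12 receptor, had 3.73 and 3.69 CPM in Naive against 332 and 275 CPM in Th1. *Ifng*, encoding interferon gamma, had 4.45 and 4.47 CPM in Naive against 173 and 153 CPM in Th1, and *Gzmb*, encoding the serine protease granzyme B, had 11.5 and 4.61 CPM in Naive against 876 and 453 CPM in Th1. The groups did not overlap for any of the 4 genes, and their log2 fold changes ranged from 2.75 for *Tbx21* to 6.35 for *Il12rb2*. In bulk samples, fewer cells of a type and less RNA per cell cannot be told apart, for these and all later genes.

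Of the genes tested, 488 were up-regulated in Th1 and 272 were down-regulated. A gene was called when its log2 fold change exceeded 1 in size and its adjusted p-value lay under 0.01. These counts are 3.75% and 2.09% of the genes tested. In 27.9% of all genes tested both Th1 libraries lay above both Naive libraries, and in 28.8% both lay below. The median log2 fold change over all genes tested was -0.02. The number called depended on the libraries. Without Naive replicate 1 there were 86 up-regulated and 32 down-regulated genes, without Naive replicate 2 there were 153 and 182, without Th1 replicate 1 there were 628 and 463, and without Th1 replicate 2 there were 892 and 530. In these fits the lone library of a group was assumed to vary like the pair of the other group. Of the 204 called genes named here, 57 kept their call with each library left out in turn, while 146 were not called without Naive replicate 1 and 108 were not called without Naive replicate 2. Among the 57 were *Ifng*, *Gzmb* and *Il12rb2*, whereas *Tbx21* was not called without Naive replicate 1.

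**Figure D1:**
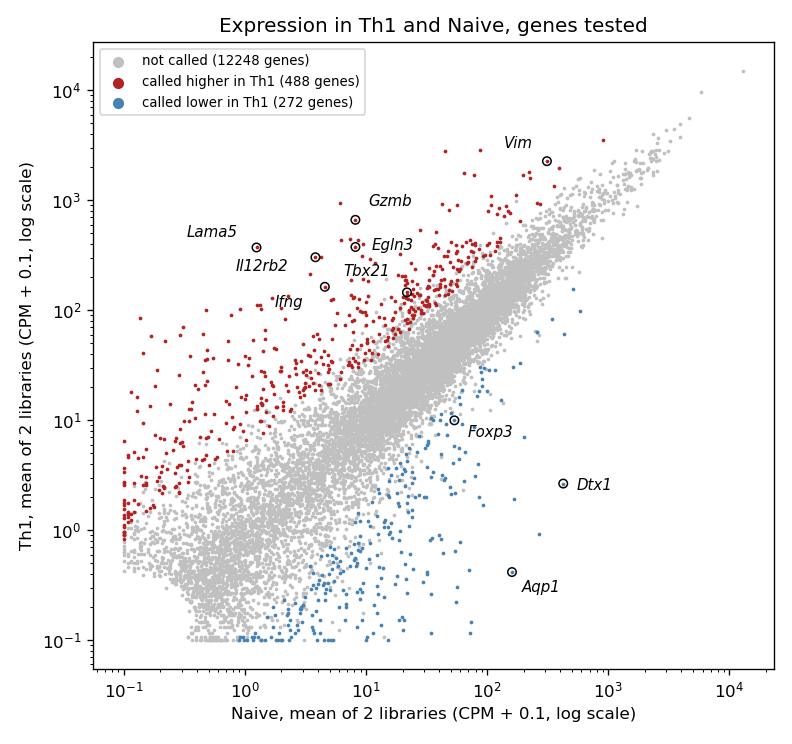
Mean CPM of the 2 Naive libraries (x axis) against the mean CPM of the 2 Th1 libraries (y axis), each with 0.1 added and on a log scale, with 1 point for each of the 13008 genes tested. The 488 genes called higher in Th1 (red) reach further from the diagonal at low Naive levels, and *Dtx1* and *Aqp1* stand far below it among the 272 called lower (blue).

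The genes with the largest increases were of mixed function, and several encode secreted or cell surface proteins. *Sparc*, a secreted protein that binds collagen, had 0.129 and 0.291 CPM in Naive against 30.2 and 111 CPM in Th1. Its log2 fold change of 8.59 (SE 0.82) was the largest of the called genes ranked. These had over 3 counts in each library and no overlap between the groups. *Lama5*, the alpha chain of several laminins of the basement membrane, had 0.977 and 1.31 CPM in Naive against 436 and 309 CPM in Th1, a log2 fold change of 8.38 (SE 0.44). *Prnp*, the cellular prion protein, a glycolipid-anchored surface protein, had 6.71 and 5.34 CPM in Naive against 784 and 1118 CPM in Th1. The other 7 of the 10 largest increases were *Gp49a*, *Tmem151b*, *Cxcr1*, *Lilrb4*, *Esm1*, *Ffar2* and *Rufy4*, with log2 fold changes from 6.45 for *Rufy4* to 7.90 for *Gp49a*. *Ffar2* is a receptor for short-chain fatty acids. It had 1.67 and 0.631 CPM in Naive against 71.7 and 149 CPM in Th1, and the groups did not overlap. *Sparc* was not called without Naive replicate 1, and the other 9 genes kept their call with each library left out. *Gp49a* and *Lilrb4* are near-identical neighbours among inhibitory immunoglobulin-like receptors, so the division of reads between them is uncertain.

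A further 43 up-regulated genes had 3 counts or fewer in both Naive libraries. *Ubd*, which encodes the ubiquitin-like modifier FAT10, had 15.9 and 20.2 CPM in Th1. The mean of these was at least 191-fold higher than in Naive, computed against 3 counts in each Naive library. In the same way *Scrt1*, a zinc finger repressor known from neurons, was at least 142-fold higher, *Wnk2* at least 77.2-fold, the adhesion molecule gene *Ncam2* at least 67.6-fold, and *Ccl22*, a chemokine that attracts cells bearing Ccr4, at least 49.8-fold. *Ubd* and *Scrt1* kept their call with each library left out, and the other 3 were not called without Naive replicate 1.

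To place these genes in pathways, 42 lists holding 1030 distinct genes were counted, of which 979 were tested. Of the tested members, 115 were up-regulated and 27 were down-regulated. The counts of each list are to be read beside the shares among all genes tested. These were 3.75% up-regulated and 2.09% down-regulated, with 27.9% above and 28.8% below Naive in both Th1 libraries. At least 1 member was up-regulated in 28 lists, at least 1 was down-regulated in 16, and 11 lists had no called member. The shares of members called were highest in the lists of cholesterol synthesis, hypoxia, glycolysis and chemokine receptors, as the plot of members called by gene list shows.

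**Figure D2:**
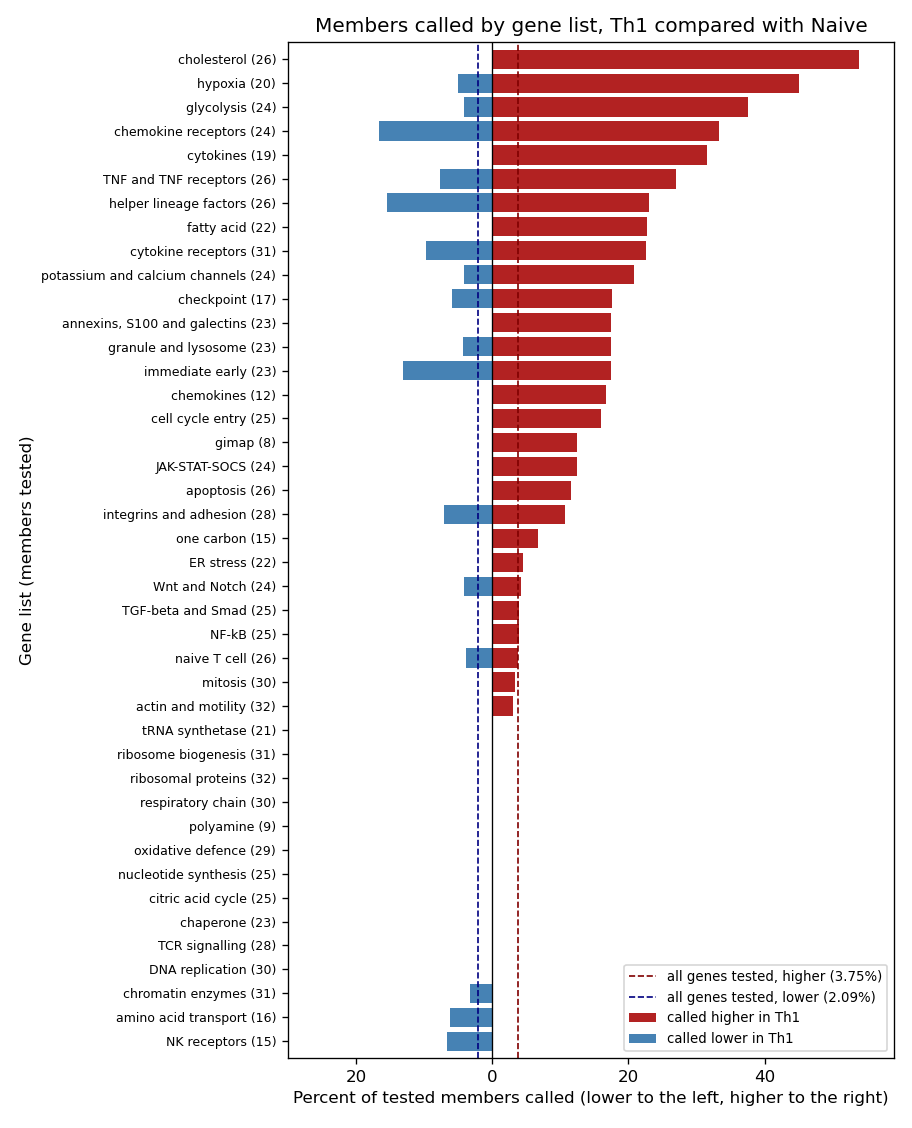
Percent of the tested members of each of 42 gene lists called higher (red, to the right) and lower (blue, to the left) in Th1, with the number tested in brackets and dashed lines at the shares among all genes tested, 3.75% and 2.09%. The cholesterol list has 14 of 26 members called higher and none called lower, whereas the DNA replication, ribosome biogenesis and respiratory chain lists have no called member.

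Genes of cholesterol synthesis and uptake were higher in Th1 as a group. Of 26 members tested, 14 were up-regulated and 0 were down-regulated, against 3.75% and 2.09% of all genes. The median log2 fold change of the list was 1.75, with 25 members higher. Both Th1 libraries lay above both Naive libraries for 23 members, against 27.9% of all genes tested. Sterol synthesis starts with the condensation to HMG-CoA by Hmgcs1, which leads to mevalonate. *Hmgcs1* had 33.5 and 31.3 CPM in Naive against 207 and 128 CPM in Th1, a log2 fold change of 2.37 (SE 0.33, edgeR adjusted p = 0.00242). Each Th1 library lay above both Naive libraries.

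The up-regulated members covered most steps of the pathway. Mevalonate is turned into isoprenoids by *Mvk*, *Mvd*, *Idi1* and *Fdps*, whose log2 fold changes were 1.77, 1.66, 2.43 and 2.50. *Fdft1*, *Sqle* and *Lss*, the enzymes that make squalene and close it into lanosterol, had log2 fold changes of 1.76, 2.51 and 2.34. *Cyp51*, the lanosterol demethylase, had 27.0 and 21.9 CPM in Naive against 199 and 112 CPM in Th1 and the largest log2 fold change of the list, 2.67 (SE 0.36). *Insig1*, which holds the sterol sensor in the endoplasmic reticulum, and *Stard4*, a sterol carrier, were also up-regulated, with log2 fold changes of 1.81 and 1.77. The transcription factor gene *Srebf2* had 232 and 298 CPM in Naive against 685 and 673 CPM in Th1 and was not called (edgeR adjusted p = 0.0217). Within Th1, 22 of the 26 members were higher in replicate 1 than in replicate 2. The 14 calls fell to 0 without Naive replicate 1 and to 0 without Naive replicate 2, with list medians of 1.85 and 1.67, and were 12 and 17 without Th1 replicates 1 and 2. With scaling by library size alone 5 members were called, with a median of 1.51 where all genes had -0.27.

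The promoters of 2 of these genes are shown because the members moved together and the letters CCAAT, a common promoter element, recurred in them. Each line gives the 150 bases before the transcription start from RefSeq (GRCm38.p6), 5′ to 3′ on the strand of the gene, with CCAAT on either strand (read as ATTGG on the other) and the sterol response core TCACNCCAC in capitals. The window of *Hmgcs1* is chr13:119690201-119690350 on the plus strand, and that of *Cyp51* is chr5:4104698-4104847 on the minus strand.
Hmgcs1: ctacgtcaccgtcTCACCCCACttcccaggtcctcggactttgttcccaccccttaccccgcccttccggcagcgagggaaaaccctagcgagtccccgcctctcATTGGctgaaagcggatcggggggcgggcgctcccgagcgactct
Cyp51: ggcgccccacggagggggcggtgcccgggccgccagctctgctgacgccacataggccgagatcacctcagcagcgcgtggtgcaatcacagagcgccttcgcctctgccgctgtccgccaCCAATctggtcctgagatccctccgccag
In the 250 bases before the start, CCAAT was found in all 7 up-regulated members of the list for which a promoter was given, and in 17 of the 18 tested members with one, against 40.2% of the 9819 tested genes matched by symbol to a promoter. Among all up-regulated genes the share was 38.2% and among all down-regulated genes 42.9%. TCACNCCAC was found in 1.24% of all promoters and, among these 7 genes, in *Hmgcs1*. The motifs were picked after the calls were seen, and a match is a description of the letters only.

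Of 22 fatty acid genes tested, 5 were up-regulated and 0 were down-regulated, with a median log2 fold change of 0.96. The called members act on chain length and desaturation or supply NADPH. *Scd2*, a stearoyl-CoA desaturase, had 114 and 86.9 CPM in Naive against 908 and 684 CPM in Th1, a log2 fold change of 2.98 (SE 0.35), and *Scd1*, its relative, had 1.35 and 0.146 CPM in Naive against 27.3 and 12.9 CPM in Th1. *Elovl6* and *Elovl5*, which lengthen fatty acids, had log2 fold changes of 3.04 and 2.43. *Me1*, the NADP-dependent malic enzyme, had 0 and 0 counts in Naive and 105 and 32 counts in Th1. At 1.59 and 1.98 CPM, its mean in Th1 was at least 18.9-fold higher. The enzymes that make the chain itself did not pass the test. *Fasn*, the fatty acid synthase, had 195 and 231 CPM in Naive against 475 and 277 CPM in Th1, with a log2 fold change of 0.82 (edgeR adjusted p = 0.161), and *Acly*, which supplies cytosolic acetyl-CoA, had 309.8 and 325 CPM in Naive against 418 and 377 CPM in Th1. Genes of fatty acid oxidation were not called either, among them *Hadha* with 171 and 149.8 CPM in Naive against 130.0 and 137 CPM in Th1. Without Naive replicate 1 or without Naive replicate 2 the count was 1, that of *Elovl6*, and without Th1 replicate 2 it was 9 higher and 1 lower. DESeq2 on all 4 libraries called 8 higher.

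Of 24 glycolysis genes tested, 9 were up-regulated in Th1, among them transporters of glucose and lactate, 1 was down-regulated and 14 were not called, with a list median of 1.35. *Slc2a1*, the glucose transporter Glut1, had 42.9 and 49.4 CPM in Naive against 299.5 and 328 CPM in Th1, a log2 fold change of 2.77 (SE 0.30, edgeR adjusted p = 0.000808). *Hk2*, the hexokinase isoform induced in growing cells, had 9.08 and 5.88 CPM in Naive against 98.0 and 62.7 CPM in Th1. Of the middle steps, *Aldoa*, *Tpi1*, *Pgk1* and *Pgam1* were up-regulated with log2 fold changes from 1.94 to 2.83, and *Aldoc*, an aldolase known from brain, had 2.43 and 1.94 CPM in Naive against 66.9 and 201 CPM in Th1. *Pkm*, pyruvate kinase, was the most abundant called member, with 854 and 942 CPM in Naive against 3569 and 3574 CPM in Th1. *Slc16a3*, the monocarboxylate transporter that exports lactate, had 10.5 and 7.87 CPM in Naive against 318 and 307 CPM in Th1, a log2 fold change of 5.08 (SE 0.34), the second largest of the list after that of *Aldoc* at 5.92. The lactate dehydrogenase chains differed. *Ldhb* was down-regulated, with 26.2 and 28.6 CPM in Naive against 6.51 and 7.61 CPM in Th1, while *Ldha* had 913 and 607 CPM in Naive against 1919 and 1817 CPM in Th1 and was not called (edgeR adjusted p = 0.0445). *Hk1* and *Gpi1* were also abundant and not called, with 354 and 232 CPM in Naive against 309.9 and 318 CPM in Th1 for *Hk1*. *Gapdh* and *Eno1* have many near-identical copies in the genome, so their levels are uncertain here. *Gapdh* had 12.1 and 27.3 CPM in Naive against 49.5 and 37.8 CPM in Th1 and was not called, and *Eno1* was at or under 3 counts in every library.

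Genes of oxygen sensing and of the hypoxia response formed a neighbouring group, with 9 of 20 tested members up-regulated, 1 down-regulated and a median of 1.63. *Hif1a*, the oxygen-regulated subunit of the hypoxia-inducible factor, had 90.7 and 123 CPM in Naive against 1121 and 1050 CPM in Th1, a log2 fold change of 3.34 (SE 0.35, edgeR adjusted p = 0.000707). *Egln3*, a prolyl hydroxylase that marks Hif1a for degradation, had 7.71 and 8.40 CPM in Naive against 338 and 414 CPM in Th1, with a log2 fold change of 5.55. Of the other hydroxylases, *Egln1* had 71.1 and 97.0 CPM in Naive against 167 and 267 CPM in Th1 and *Egln2* had 102 and 94.3 CPM in Naive against 78.3 and 99.7 CPM in Th1, and neither was called. The mitophagy receptor gene *Bnip3* had 6.06 and 4.71 CPM in Naive against 66.9 and 79.4 CPM in Th1. The collagen-modifying enzymes *P4ha2*, *P4ha1* and *Plod2* had log2 fold changes of 4.04, 1.80 and 3.51, and the growth factor gene *Vegfa* had 4.87 and 1.75 CPM in Naive against 27.6 and 48.1 CPM in Th1. *Ero1l* and *Ankrd37* completed the up-regulated members, with 1.65 and 2.71. *Ddit4*, an inhibitor of mTORC1 that hypoxia and glucocorticoids induce, went the other way, with 559 and 453 CPM in Naive against 181 and 129 CPM in Th1. Its log2 fold change was -1.71 (SE 0.33).

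**Figure D3:**
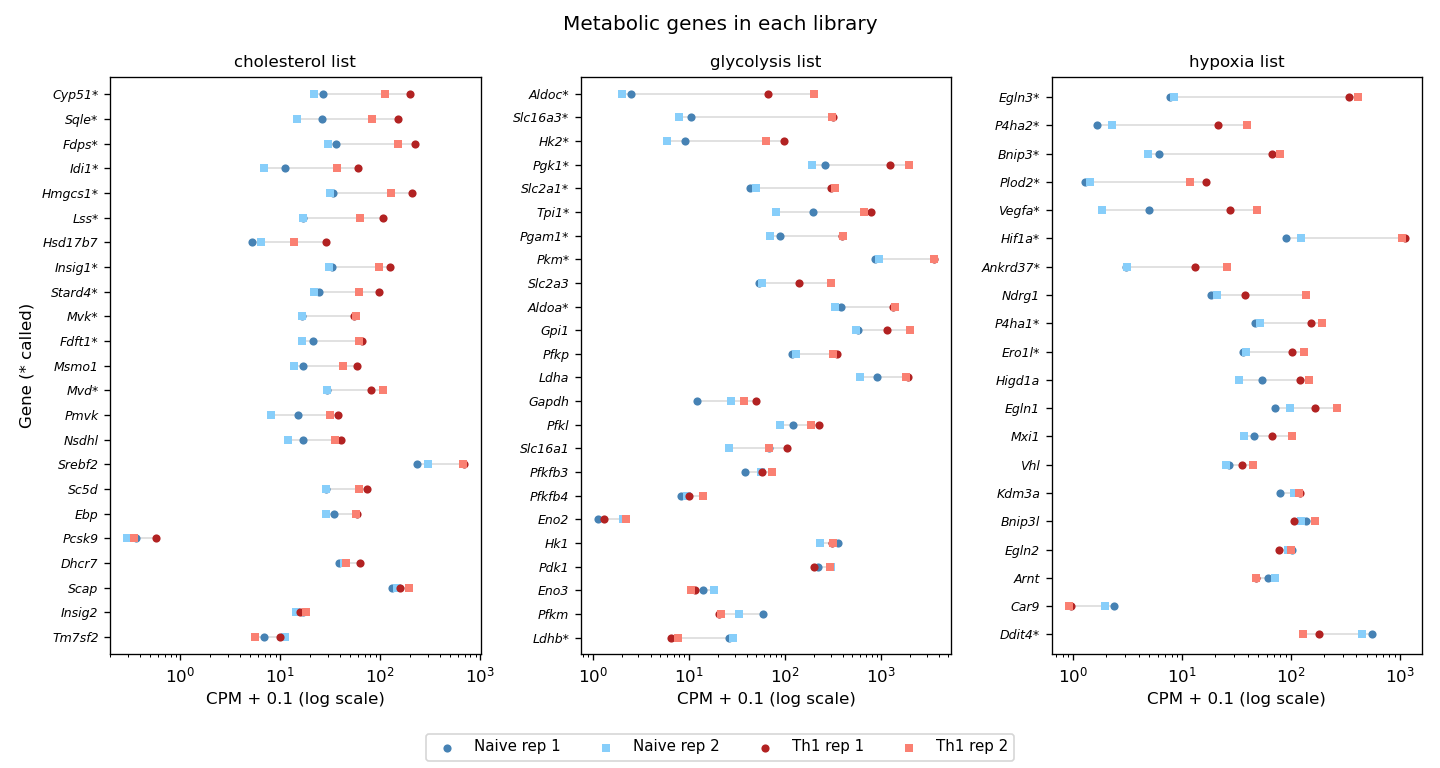
CPM in each library (x axis, 0.1 added, log scale; blue for Naive, red for Th1, circles for replicate 1 and squares for replicate 2) of 23 of the tested members of the cholesterol list and all tested members of the glycolysis and hypoxia lists, ordered by log2 fold change, with called genes marked by an asterisk. Red and blue symbols are apart for most members, and *Ldhb* and *Ddit4* lie at the foot of their lists with the Th1 libraries to the left.

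Both lists rested on the Naive libraries: without Naive replicate 1 the up-regulated members were 1 for glycolysis and 2 for hypoxia, and without Naive replicate 2 they were 4 and 4, with list medians of 1.46 to 1.66. *Slc16a3*, *Egln3* and *Bnip3* kept their call with each library left out. Without Th1 replicates 1 and 2 they were 11 and 9 for glycolysis and 12 and 10 for hypoxia, at a hypoxia median of 1.00 without Th1 replicate 2, and *Ddit4* was no longer called without Naive replicate 1, Naive replicate 2 or Th1 replicate 2. Promoters of 4 up-regulated members of the lists are shown because they hold the core ACGTG of the element that hypoxia-inducible factors bind. Capitals mark ACGTG on the printed strand or its reverse complement CACGT, 5′ to 3′ in the 150 bases before the start (RefSeq, GRCm38.p6), and where both overlap as CACGTG the letters also form an E-box. The windows are chr4:119108595-119108744 on the plus strand for *Slc2a1*, chr11:120948917-120949066 on the plus strand for *Slc16a3*, chrX:106186950-106187099 on the plus strand for *Pgk1* and chr7:138909507-138909656 on the minus strand for *Bnip3*.
Slc2a1: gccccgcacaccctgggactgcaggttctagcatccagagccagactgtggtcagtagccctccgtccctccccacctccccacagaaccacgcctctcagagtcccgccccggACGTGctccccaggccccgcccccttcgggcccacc
Slc16a3: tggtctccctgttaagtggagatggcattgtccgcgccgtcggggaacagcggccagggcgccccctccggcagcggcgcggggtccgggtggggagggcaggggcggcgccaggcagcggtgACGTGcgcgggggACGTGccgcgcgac
Pgk1: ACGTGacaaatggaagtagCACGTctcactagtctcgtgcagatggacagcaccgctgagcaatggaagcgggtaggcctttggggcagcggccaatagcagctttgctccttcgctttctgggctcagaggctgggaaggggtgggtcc
Bnip3: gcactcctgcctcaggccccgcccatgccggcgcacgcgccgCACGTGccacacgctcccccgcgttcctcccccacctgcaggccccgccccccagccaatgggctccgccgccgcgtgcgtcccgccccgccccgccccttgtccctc
In the 250 bases before the start, ACGTG on either strand was found in 7 of 7 up-regulated hypoxia genes with a promoter and in 7 of 9 up-regulated glycolysis genes, and in 12 of 16 and 11 of 23 of all tested members of these lists with a promoter, against 25% of the 9819 tested genes with a promoter. The share was 24.1% among all up-regulated and 24% among all down-regulated genes. *Bnip3* holds the palindrome CACGTG.

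Other lists of growth and energy metabolism held few calls or none. No member was called in either direction of 25 nucleotide synthesis, 31 ribosome biogenesis, 21 aminoacyl-tRNA synthetase, 23 chaperone, 30 respiratory chain, 25 citric acid cycle and 29 oxidative defence genes, of 9 polyamine genes, or of 32 ribosomal protein genes, by edgeR, at medians of -0.29 to 0.13. Per list, 0 (ribosomal proteins) to 9 (oxidative defence) members had an unadjusted p under 0.05, as did 3544 of all 13008 genes tested. Under DESeq2 4 of these lists, polyamine, nucleotide synthesis, chaperone and oxidative defence, had at least 1 called member. In the ribosome biogenesis list, 4 of 31 members were higher and the median was -0.26, while it was 0.046 without Naive replicate 1 and -0.58 without Naive replicate 2. Of these 31 genes, 29 were higher in Naive replicate 1 than in Naive replicate 2. One-carbon metabolism had a single call. *Ahcy*, which clears S-adenosylhomocysteine after methylation reactions, had 194 and 89.5 CPM in Naive against 813 and 979.5 CPM in Th1, a log2 fold change of 2.66 (SE 0.43). Of 16 amino acid transporters tested, *Slc43a1*, a carrier of large neutral amino acids, was the single called member, with 18.3 and 6.12 CPM in Naive against 0.440 and 0.557 CPM in Th1. In the list of endoplasmic reticulum stress, *Atf3*, a stress-induced repressor, was called at a low level, with 0.0575 and 0.0486 CPM in Naive against 3.26 and 1.73 CPM in Th1. *Ahcy* and *Atf3* were not called without Naive replicate 1 or without Naive replicate 2, nor was *Slc43a1* without Naive replicate 1.

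Cell cycle genes differed between the libraries of a group as well as between the groups. All 30 mitosis genes tested had a positive log2 fold change, with a median of 1.88. In both Th1 libraries 26 lay above Naive, against 27.9% of all genes tested, but 1 was called. This was *Ube2c*, a ubiquitin-conjugating enzyme of the anaphase-promoting complex, with 55.7 and 26.2 CPM in Naive against 342 and 164 CPM in Th1, a log2 fold change of 2.62 (SE 0.47). *Top2a*, the topoisomerase that untangles sister chromatids, had 226 and 122 CPM in Naive against 1560 and 392 CPM in Th1, and *Mki67*, the proliferation antigen Ki-67, had 134 and 90.2 CPM in Naive against 836 and 177 CPM in Th1. Th1 replicate 1 had the highest value of *Top2a* and *Mki67*, and the Naive libraries were not at 0. In all 30 genes replicate 1 was above replicate 2 in Naive and in Th1, with median ratios of 2.14 and 3.31. The calls moved with the library: 30 of 30 were up-regulated without Th1 replicate 2, 2 without Th1 replicate 1 and 0 without either Naive library, with medians of 2.51, 0.78, 2.59 and 1.39. DESeq2, used in place of edgeR on all 4 libraries, called 17, and edgeR with no filter on low counts called 30.

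Genes of DNA replication did not separate the groups. All 30 members tested overlapped between Naive and Th1, edgeR called 0, also at an unadjusted p under 0.05, DESeq2 called 0, and the median was 0.32. *Mcm5*, a subunit of the replicative helicase, had 281 and 108 CPM in Naive against 370.0 and 91.3 CPM in Th1, and *Pcna*, the sliding clamp, had 423 and 214 CPM in Naive against 859.7 and 412 CPM in Th1. The values of replicate 1 exceeded those of replicate 2 in all 30 genes in both groups, with median ratios of 2.09 and 3.32. The list median was 0.93 without Th1 replicate 2 and -0.77 without Th1 replicate 1.

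In the list of cell cycle entry, 4 of 25 tested members were up-regulated and 0 were down-regulated. *Cdkn1a*, encoding the p53-inducible inhibitor p21, had 1.84 and 0.631 CPM in Naive against 126 and 99.6 CPM in Th1, a log2 fold change of 6.41 (SE 0.52, edgeR adjusted p = 0.000217). *Cdkn2a*, a locus that encodes p16 and p19Arf, had 0.287 and 0.291 CPM in Naive against 13.3 and 7.36 CPM in Th1, and its neighbour *Cdkn2b* had 0.244 and 0 CPM in Naive against 5.16 and 4.64 CPM in Th1. These are 3 of the 10 tested genes of the Cdkn family. *E2f2*, a transcription factor of the cell cycle, had 54.7 and 56.8 CPM in Naive against 293 and 179 CPM in Th1. Of the abundant members not called, *Cdkn1b*, encoding p27, had 187 and 234 CPM in Naive against 261 and 304 CPM in Th1, *Ccnd2* had 294 and 326 CPM in Naive against 378 and 401 CPM in Th1, and *Ccnd3*, cyclin D3, had 154 and 190.3 CPM in Naive against 409.8 and 375 CPM in Th1. *Cdkn1a* kept its call with each library left out. The count was 1 without Naive replicate 1, 2 without Naive replicate 2, 4 without Th1 replicate 1 and 7 without Th1 replicate 2.

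**Figure D4:**
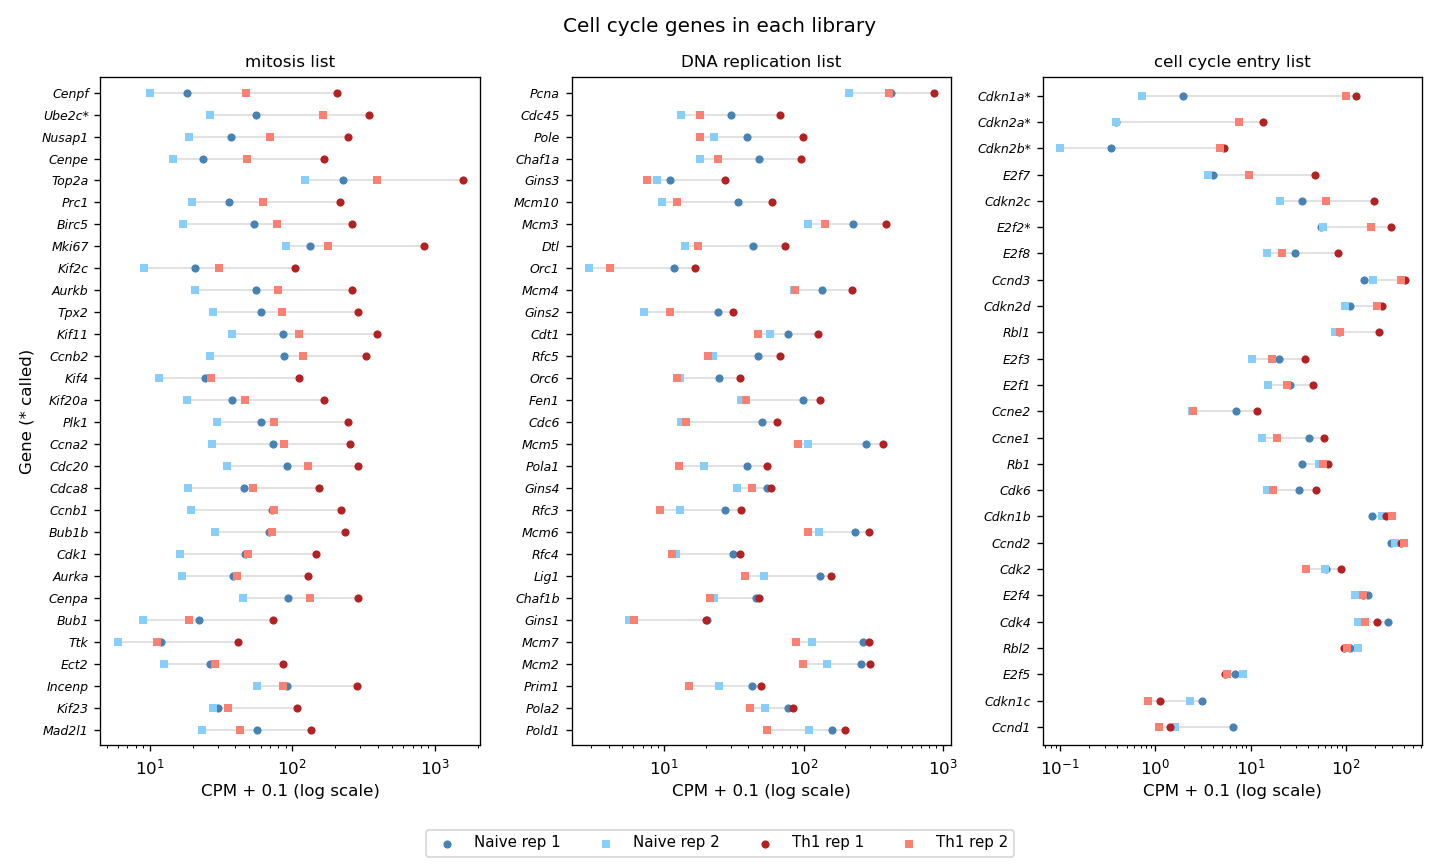
CPM in each library (x axis, 0.1 added, log scale; blue for Naive, red for Th1, circles for replicate 1 and squares for replicate 2) of the tested members of the mitosis, DNA replication and cell cycle entry lists, ordered by log2 fold change, with called genes marked by an asterisk. Circles lie to the right of squares of the same colour in all 30 mitosis and all 30 DNA replication genes, and *Cdkn1a* stands apart at the head of its list.

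Th1 cells expressed a set of cytokines other than interferon gamma. Of 19 cytokine genes tested, 6 were up-regulated and 0 were down-regulated. *Csf2*, encoding GM-CSF, had 0.273 and 0.0971 CPM in Naive against 20.1 and 31.8 CPM in Th1, a log2 fold change of 6.91 (SE 0.59), and *Csf1*, the macrophage growth factor, had 3.75 and 4.51 CPM in Naive against 348 and 257 CPM in Th1, which made it the most abundant of the 6 in Th1. *Il10*, an anti-inflammatory cytokine that Th1 cells can also make, had 0.230 and 0.340 CPM in Naive against 25.7 and 15.8 CPM in Th1. *Lif* and *Osm*, cytokines that signal through gp130, had log2 fold changes of 5.32 and 2.46, and *Il21* had 1.71 and 1.70 CPM in Naive against 13.1 and 13.3 CPM in Th1. *Il2* had 0.560 and 0.534 CPM in Naive against 0.0910 and 0.186 CPM in Th1 and was not called, in cultures that received IL-2. *Il4*, with 1.25 and 1.26 CPM in Naive against 0.728 and 0.495 CPM in Th1, and *Il17a*, with 0.302 and 0.0486 CPM in Naive against 0.531 and 0.0619 CPM in Th1, were low and not called. Leaving out either Naive library left 4 of the 6 calls, those of *Csf1*, *Csf2*, *Il10* and *Lif*, and leaving out Th1 replicate 1 or 2 gave 7 and 8.

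Among cytokine receptors, 7 of 31 tested members were up-regulated and 3 were down-regulated. The receptor for IL-2 rose in its alpha and beta chains. *Il2ra* had 41.4 and 70.3 CPM in Naive against 1015 and 813 CPM in Th1, a log2 fold change of 4.03 (SE 0.40), *Il2rb* had 194 and 250.2 CPM in Naive against 1477 and 2160 CPM in Th1, and the shared gamma chain gene *Il2rg* had 317 and 467 CPM in Naive against 739 and 739 CPM in Th1 and was not called. Both chains of the IL-18 receptor rose, with log2 fold changes of 4.08 for *Il18r1* and 4.09 for *Il18rap*, as did *Il12rb1*, the partner of *Il12rb2*, with 2.05. The 2 chains of the interferon gamma receptor moved in opposite directions. *Ifngr1*, the ligand-binding chain, had 141 and 101 CPM in Naive against 597 and 895 CPM in Th1, a log2 fold change of 2.62 (SE 0.37), while *Ifngr2*, the signalling chain, had 34.5 and 48.8 CPM in Naive against 2.55 and 7.05 CPM in Th1, a log2 fold change of -3.15 (SE 0.52). *Il6ra* and *Il9r* were also down-regulated, with 205 and 313 CPM in Naive against 50.1 and 77.7 CPM in Th1 for *Il6ra* and 7.04 and 7.67 CPM in Naive against 0.728 and 0.309 CPM in Th1 for *Il9r*. Without Naive replicate 1 or Naive replicate 2 there were 4 higher and 0 lower calls, so that the 3 decreases were not called there, and without Th1 replicate 1 there were 11 and 2.

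Chemokine and related receptors were called in both directions more often than most lists, with 8 of 24 tested members up-regulated and 4 down-regulated. *Cxcr6* had 37.7 and 33.3 CPM in Naive against 364 and 399 CPM in Th1, and *Cxcr3*, the receptor for interferon-induced chemokines, had 47.3 and 46.6 CPM in Naive against 119.8 and 163 CPM in Th1. *Ccr2*, *Ccr4*, *Xcr1*, *Gpr18* and the leukotriene B4 receptor gene *Ltb4r1* had log2 fold changes of 2.32, 1.90, 3.04, 2.03 and 3.70. Receptors that guide cells to the gut and to B cell follicles fell. *Ccr9*, a gut homing receptor, had 9.96 and 14.3 CPM in Naive against 0.167 and 0.247 CPM in Th1, a log2 fold change of -5.95 (SE 0.59), *Cxcr5*, the follicular receptor, had 18.8 and 25.3 CPM in Naive against 1.09 and 1.61 CPM in Th1, *Ccr6* had 2.51 and 4.51 CPM in Naive against 0.243 and 0.186 CPM in Th1, and *S1pr5* was at or under 3 counts in both Th1 libraries. The lymph node receptor gene *Ccr7*, with 289.7 and 388 CPM in Naive against 339 and 512 CPM in Th1, and the egress receptor gene *S1pr1*, with 265 and 344 CPM in Naive against 217 and 550.5 CPM in Th1, overlapped between the groups and were not called. Of 12 chemokines tested, *Ccl6* and *Ccl22* were up-regulated, and *Ccl6* had 0.891 and 0.388 CPM in Naive against 14.8 and 12.9 CPM in Th1. The receptor counts were 2 higher and 2 lower without either Naive library, 10 and 4 without Th1 replicate 1, and 8 and 5 without Th1 replicate 2.

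Of 26 tested TNF family receptors and ligands, 7 were up-regulated and 2 were down-regulated, with a receptor and a ligand among the latter. The costimulatory receptors *Tnfrsf4*, encoding OX40, and *Tnfrsf18*, encoding GITR, had log2 fold changes of 2.45 and 2.14, with 22.5 and 27.3 CPM in Naive against 137 and 135 CPM in Th1 for *Tnfrsf4*. *Tnfrsf8*, encoding CD30, *Tnfrsf11a*, encoding RANK, and *Tnfrsf1b*, the second TNF receptor, rose by 3.45, 4.65 and 1.96 on the log2 scale. The ligand of OX40, *Tnfsf4*, also rose, with 0.675 and 0.874 CPM in Naive against 18.6 and 45.9 CPM in Th1, and *Fasl*, the death ligand, had 7.25 and 7.53 CPM in Naive against 33.9 and 29.0 CPM in Th1. *Tnfsf14*, encoding LIGHT, and *Ltbr*, which encodes a receptor for it, were down-regulated, with 21.7 and 19.3 CPM in Naive against 4.28 and 2.66 CPM in Th1 for *Tnfsf14* and with 487 and 50 counts in Naive and 22 and 2 counts in Th1 for *Ltbr*, a log2 fold change of -4.19. *Ltb*, the most abundant gene of the list, had 803 and 795 CPM in Naive against 1035 and 1407 CPM in Th1 and was not called. None of the members was called without Naive replicate 1, and 2 were without Naive replicate 2.

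In the list of checkpoint genes, 3 of 17 tested members were up-regulated and 1 was down-regulated. *Ctla4*, which competes with CD28 for its ligands, had 28.1 and 38.1 CPM in Naive against 200.4 and 287 CPM in Th1, a log2 fold change of 2.88 (SE 0.34), *Lag3* had 10.7 and 10.3 CPM in Naive against 35.5 and 50.7 CPM in Th1, and *Entpd1*, the ectoenzyme CD39, had 6.97 and 6.12 CPM in Naive against 67.6 and 79.0 CPM in Th1. *Cd160* was down-regulated, with 21.5 and 14.9 CPM in Naive against 2.32 and 0.990 CPM in Th1. Without Naive replicate 1 the list had 1 call, without Naive replicate 2 it had 2, and *Cd160* was not among them. Of 15 NK cell receptors tested, *Klrb1c*, which encodes NK1.1, was down-regulated, with 1187 and 227 counts in Naive and 11 and 2 counts in Th1, a log2 fold change of -6.49, and kept its call with each library left out.

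Transcription factors of the helper lineages changed in both directions, with 6 of 26 tested members up-regulated and 4 down-regulated. The largest increase was that of *Bhlhe40*, a helix-loop-helix repressor that supports cytokine production, with 8.58 and 8.25 CPM in Naive against 369 and 497 CPM in Th1, a log2 fold change of 5.68 (SE 0.36). *Nfil3*, *Prdm1*, *Id2* and *Runx2* rose by 3.30, 2.25, 2.21 and 1.69 on the log2 scale. *Foxp3* and *Ikzf2*, factors of regulatory T cells, were down-regulated, with 38.4 and 68.6 CPM in Naive against 6.81 and 12.9 CPM in Th1 for *Foxp3* and 60.0 and 96.5 CPM in Naive against 10.7 and 6.37 CPM in Th1 for *Ikzf2*. *Tox* and *Tox2*, high mobility group factors known from developing and chronically stimulated T cells, also fell, with 40.7 and 63.9 CPM in Naive against 3.02 and 4.89 CPM in Th1 for *Tox* and a log2 fold change of -4.30 for *Tox2*. *Gata3*, the Th2 factor, had 56.3 and 80.8 CPM in Naive against 114 and 235 CPM in Th1 and was not called. The calls were 1 higher and 2 lower without Naive replicate 1, 3 and 1 without Naive replicate 2, and 9 and 4 without Th1 replicate 1 or Th1 replicate 2. *Bhlhe40* and *Tox* kept their call throughout, and *Ikzf2* was not called without Naive replicate 2.

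Genes that T cell receptor signalling induces within minutes to hours were called in both directions. Of 23 members tested, 4 were up-regulated and 3 were down-regulated. In the AP-1 family *Jun*, *Fosl2* and *Batf3* rose, with 114 and 233 CPM in Naive against 777 and 1446 CPM in Th1 for *Jun* and 8.45 and 11.2 CPM in Naive against 93.7 and 88.2 CPM in Th1 for *Fosl2*. *Fos* had 61.4 and 157 CPM in Naive against 53.7 and 266 CPM in Th1 and *Junb* had 657 and 797 CPM in Naive against 779 and 1781 CPM in Th1, both with overlapping groups. *Ier3*, an immediate early gene linked to survival, rose by 2.44 on the log2 scale. The 3 decreases were those of the zinc finger factors *Egr2* and *Egr3* and the nuclear receptor *Nr4a3*. *Egr2* had 16.2 and 21.9 CPM in Naive against 3.06 and 4.83 CPM in Th1, *Egr3* had 24.2 and 44.8 CPM in Naive against 4.76 and 1.18 CPM in Th1, and *Nr4a3* had 6.89 and 14.4 CPM in Naive against 0.835 and 0.495 CPM in Th1, log2 fold changes of -2.29, -3.48 and -3.93. *Egr1*, of the same family as *Egr2*, had 75.2 and 104 CPM in Naive against 166 and 498 CPM in Th1, higher in both Th1 libraries, and was not called. The 3 decreases were not called without Naive replicate 1 or without Naive replicate 2, where 1 increase, that of *Fosl2*, remained. None of 28 T cell receptor signalling genes was called by edgeR, with a median of 0.10, while 7 had an unadjusted p under 0.05 and DESeq2 called 1.

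*Socs1*, *Socs2* and *Socs3*, inhibitors of cytokine signalling, rose, while further inhibitors, the kinases and the Stat factors of the same list were not called. Of 24 tested members of the JAK-STAT-SOCS list, 3 were up-regulated and 0 were down-regulated. *Socs1* had 31.6 and 44.0 CPM in Naive against 205 and 305 CPM in Th1, *Socs2* had 7.63 and 8.16 CPM in Naive against 95.7 and 66.2 CPM in Th1, and *Socs3* had 79.8 and 128 CPM in Naive against 342 and 484 CPM in Th1, with log2 fold changes of 2.75, 3.36 and 1.99. Of these 3, none was called without Naive replicate 1 and 2 were called without Naive replicate 2. In the NF-kB list, *Bcl3*, an atypical I-kappa-B protein that works in the nucleus, was the single call among 25, with 22.8 and 32.1 CPM in Naive against 91.5 and 186 CPM in Th1. In the TGF-beta list, also with 25 tested, it was *Bmpr1a*, a receptor for bone morphogenetic proteins. This gene had 0.948 and 1.36 CPM in Naive against 14.3 and 10.6 CPM in Th1. A single call in each of these lists is near the 3.75% of all genes tested that were up-regulated. *Bcl3* and *Bmpr1a* were not called without Naive replicate 1 or Naive replicate 2.

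The Notch pathway held the gene with the highest mean level in Naive among the 10 largest decreases. This was *Dtx1*, Deltex 1, a ubiquitin ligase that Notch signals induce in lymphocytes, which had 364 and 484 CPM in Naive against 1.64 and 3.46 CPM in Th1, a log2 fold change of -7.44 (SE 0.50, edgeR adjusted p = 9.01e-05). Its level in Naive was 424 ± 85.0 CPM (SD, n = 2), and in Th1 it was 2.55 ± 1.29 CPM. *Dll1*, a Notch ligand, rose from 0.172 and 0.194 CPM in Naive to 2.40 and 2.78 CPM in Th1. The other 22 tested members of the Wnt and Notch list were not called. Of 31 chromatin enzymes *Hdac9*, a class IIa histone deacetylase, was the single call, a share near the 2.09% of all genes tested that were down-regulated. It had 2.18 and 3.40 CPM in Naive against 0.0759 and 0.124 CPM in Th1. *Dtx1* kept its call with each library left out, and *Dll1* and *Hdac9* were not called without either Naive library.

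Genes that mark naive T cells were not lower as a group. Of 26 tested members, 1 was up-regulated, 1 was down-regulated and the median was 0.31. *Lef1* had 281 and 466 CPM in Naive against 286 and 554 CPM in Th1, *Klf2* had 423 and 701 CPM in Naive against 195 and 819 CPM in Th1, and *Il7r*, the IL-7 receptor chain, had 277 and 394 CPM in Naive against 497 and 494 CPM in Th1. *Tcf7*, a transcription factor of naive and memory cells, had 1294 and 2154 CPM in Naive against 576 and 1207 CPM in Th1, lower in both Th1 libraries than in both Naive libraries and not called (edgeR adjusted p = 0.214). *Satb1* had 401 and 760.1 CPM in Naive against 1363 and 1806 CPM in Th1, and *Ets1* had 1374 and 1904 CPM in Naive against 1138 and 1422 CPM in Th1. *Il6ra* was the down-regulated and *Ly6c1* the up-regulated member, *Ly6c1* with 58.3 and 76.1 CPM in Naive against 281 and 553 CPM in Th1. *Ly6c1* and *Ly6c2* are near-identical neighbours, so their reads may be divided between them. In this list 1 of 26 members was higher in Naive replicate 1 than in Naive replicate 2, and 2 of 26 were higher in Th1 replicate 1 than in Th1 replicate 2. The median turned to -0.04 without Naive replicate 1 and to -0.36 without Th1 replicate 2, where 5 members were called lower. *Il6ra* was called without Th1 replicate 2 and not without any other library, and *Ly6c1* was not called without either Naive library. Of 8 Gimap genes, small GTPases of lymphocyte survival, *Gimap7* was up-regulated, with 57.9 and 62.2 CPM in Naive against 195 and 277 CPM in Th1, and was not called without either Naive library.

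Adhesion and cytoskeletal genes changed in single members. *Vim*, vimentin, the intermediate filament of motile cells, had 312 and 310.4 CPM in Naive against 2127 and 2413 CPM in Th1, a log2 fold change of 2.87 (SE 0.35). It was the single call among 32 genes of actin and motility, a share no higher than the 3.75% of all genes tested. Of 28 integrin and adhesion genes, 3 were up-regulated and 2 were down-regulated. *Itga4*, the alpha 4 integrin that pairs with beta 1 and beta 7 for entry into inflamed tissue and gut, had 367 and 486 CPM in Naive against 53.5 and 68.4 CPM in Th1, a log2 fold change of -2.81 (SE 0.33). *Crtam* also fell, while *Icam1*, *Itga2* and *Itgb5* rose, with 33.1 and 38.3 CPM in Naive against 174 and 241 CPM in Th1 for *Icam1*. Of these 5 calls, that of *Itga4* was the single one made without Naive replicate 1 and without Naive replicate 2. The calcium- and sugar-binding proteins of the annexin, S100 and galectin list had 4 of 23 tested members up-regulated, 0 down-regulated and a median of 1.31. Above Naive in both Th1 libraries were 18 members, against 27.9% of all genes tested. *Lgals3*, galectin-3, had 13.7 and 5.10 CPM in Naive against 442 and 353 CPM in Th1, a log2 fold change of 5.39 (SE 0.52), *Lgals1* had 142 and 109.5 CPM in Naive against 979 and 709 CPM in Th1, *Anxa2* had 52.5 and 35.9 CPM in Naive against 300.5 and 319 CPM in Th1, and *S100a6* had 31.2 and 16.9 CPM in Naive against 77.3 and 104 CPM in Th1. Leaving out either Naive library left 2 of the 4 calls, and leaving out Th1 replicate 1 or 2 gave 7 each. *Vim* was not called without Naive replicate 1 or Naive replicate 2.

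Granule, death and channel genes followed. Of 23 granule and lysosome genes tested, 4 were up-regulated and 1 was down-regulated. Besides *Gzmb*, *Gzma*, encoding granzyme A, had 4.78 and 1.84 CPM in Naive against 133 and 291 CPM in Th1, *Ctsw*, a cathepsin of cytotoxic cells, had 56.3 and 47.4 CPM in Naive against 202 and 292 CPM in Th1, and *Nkg7*, a granule membrane protein, had 39.7 and 22.8 CPM in Naive against 107 and 139 CPM in Th1. *Ctsh*, cathepsin H, had 5.27 and 1.60 CPM in Naive against 0.137 and 0.247 CPM in Th1. Of 26 apoptosis genes, the 3 up-regulated members promote death: *Bcl2l11*, encoding the BH3 protein Bim, had 48.4 and 63.8 CPM in Naive against 359 and 326 CPM in Th1, *Pmaip1*, encoding Noxa, had 2.20 and 2.82 CPM in Naive against 39.0 and 31.1 CPM in Th1, and *Casp4*, the caspase of the noncanonical inflammasome, had 5.36 and 4.13 CPM in Naive against 29.6 and 34.1 CPM in Th1. The survival gene *Bcl2* had 132 and 196 CPM in Naive against 372 and 234 CPM in Th1 and was not called. Of 24 potassium and calcium channel genes, 5 were up-regulated and 1 was down-regulated. *Cacnb3*, a calcium channel subunit, had 5.03 and 9.86 CPM in Naive against 121 and 257 CPM in Th1, *Stim2*, a calcium sensor of the endoplasmic reticulum, had 38.8 and 50.1 CPM in Naive against 116 and 161 CPM in Th1, *Kcnj8* had 0.287 and 0.243 CPM in Naive against 14.9 and 14.2 CPM in Th1, and *Cacna1d* was down-regulated at a low level, with 2.08 and 2.19 CPM in Naive against 0.0759 and 0.0619 CPM in Th1. *Trpm4* and *Ryr1* rose by 1.89 and 2.90 on the log2 scale. Without Naive replicate 1 the calls were 2 higher in the granule list, 0 in the apoptosis list and 1 in the channel list, without Naive replicate 2 they were 2 in each, and neither *Ctsh* nor *Cacna1d* was called in either case.

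The down-regulated genes differed in how alike the Naive libraries were. Genes within 3-fold of each other there included *Dtx1*, *Itga4*, *Ddit4*, *Foxp3*, *Tox* and *Slc16a5*, a carboxylate carrier with 30.4 and 53.1 CPM in Naive against 0.288 and 1.18 CPM in Th1. Of the 272 down-regulated genes, 82 (30.15%) were over 3-fold higher in Naive replicate 1, against 4.051% of all genes tested and 1.23% of the up-regulated genes, and 0 were over 3-fold higher in Naive replicate 2 (ratios of CPM with 0.1 added). These 82 genes were described after the values were seen.

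**Figure D5:**
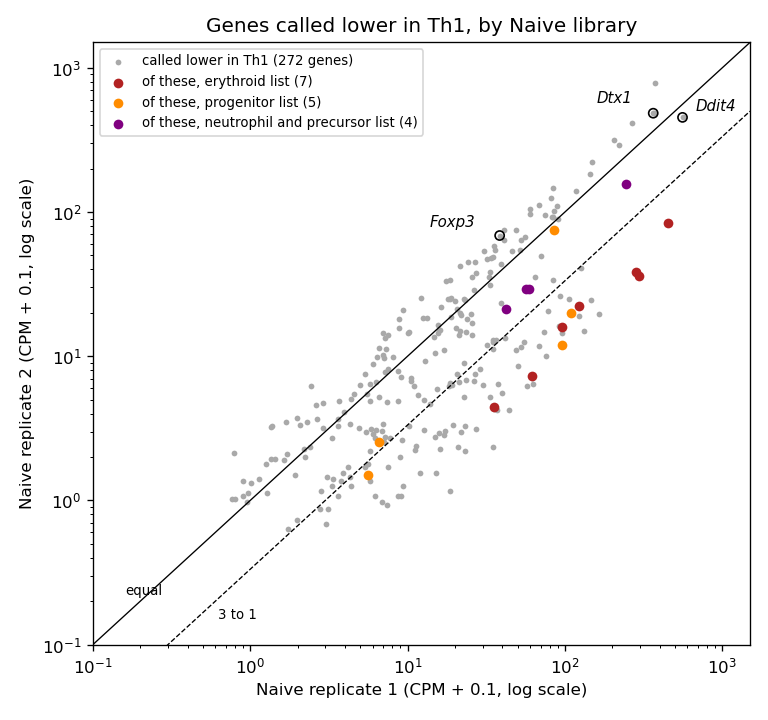
CPM in Naive replicate 1 (x axis) and Naive replicate 2 (y axis), 0.1 added, log scales, of the 272 genes called lower in Th1, with members of the erythroid, progenitor and neutrophil precursor marker lists coloured. The solid line marks equal levels and the dashed line a 3 to 1 ratio, below which 82 genes lie, the 7 called erythroid markers among them, whereas *Dtx1*, *Ddit4* and *Foxp3* lie near the solid line.

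The 82 genes included the 7 called markers of a list of erythroid markers, and other genes known from red cells were picked from them after their values were seen. *Car1*, carbonic anhydrase 1, had 453 and 84.1 CPM in Naive against 0.334 and 1.30 CPM in Th1, a log2 fold change of -8.63 (SE 1.02), *Car2* had 295 and 35.8 CPM in Naive against 1.44 and 2.17 CPM in Th1, and *Aqp1*, a water channel of red cells, had 282 and 38.2 CPM in Naive against 0.137 and 0.495 CPM in Th1. *Klf1*, the erythroid Kruppel-like factor, had 95.4 and 15.9 CPM in Naive against 0.228 and 0.186 CPM in Th1, and *Epor*, the erythropoietin receptor, had 62.1 and 7.23 CPM in Naive against 0.865 and 0.619 CPM in Th1. *Ermap* is a surface protein of red cells. By the mean of the 2 Naive libraries against 3 counts in each Th1 library, it was at least 628-fold lower in Th1. In the same way *Add2* was at least 296-fold lower, *Slc38a5* 178-fold, *Rhag* 172-fold and *Hebp1* 159.9-fold. The means were carried by Naive replicate 1. *Ermap* had 123 and 22.2 CPM in Naive, *Add2* 61.5 and 6.99 CPM and *Hebp1* 34.7 and 2.23 CPM. Of the 10 largest decreases among genes with over 3 counts in each library, *Aqp1*, *Car1*, *Ces2g*, *Bcl11a*, *Tfr2*, *Ank1*, *Car2* and *Igj* were among the 82, and *Dtx1* and *Slc16a5* were not. Without Naive replicate 1, *Epor*, *Slc38a5*, *Rhag*, *Hebp1*, *Bcl11a*, *Tfr2* and *Ank1* were not called, and 32 genes in all were.

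The summed CPM of a list of erythroid markers was 1638 and 291 in Naive and 297 and 204 in Th1, with 7 of 12 tested markers down-regulated and 0 up-regulated. The Th1 sums rested on few members. In each Th1 library 2 members were above 10 CPM, against 10 and 7 in Naive. The 7 called markers were at 2.17 CPM or less in Th1. The Hba and Hbb globin genes of the list, the defining transcripts of red cells, were at 0 counts in all 4 libraries. They have closely similar copies, so their levels are as uncertain as those of *Gapdh* and *Eno1*. The 0 counts cannot be read as absence. For progenitor markers the sums were 640 and 256 in Naive and 75.7 and 46.8 in Th1, with 5 of 11 tested markers down-regulated. *Sox4* had the highest mean of these 5 in Naive, with 84.5 and 74.5 CPM in Naive against 2.81 and 3.22 CPM in Th1. For neutrophils and their precursors the sums were 427 and 246 in Naive and 80.7 and 101 in Th1. The members did not all follow the sums. Of 17 tested, 10 had a positive log2 fold change and 7 a negative one, with a median of 1.76, and 2 were up-regulated and 4 down-regulated. *Mpo*, the myeloperoxidase of precursors, had 245 and 156 CPM in Naive against 6.63 and 7.36 CPM in Th1, and *Elane*, *Prtn3* and *Ctsg* were also down-regulated, whereas *Cxcr2* and *Ngp* were up-regulated, with 0.589 and 0.146 CPM in Naive against 35.5 and 34.1 CPM in Th1 for *Cxcr2*. The B cell gene *Ms4a1* reached at most 0.474 CPM, in Naive replicate 1, and had no counts in Naive replicate 2. The list of B cells and plasma cells held 17 markers, of which 12 were found by symbol and 6 were tested. Of these, 0 of 6 were called in either direction by edgeR. The summed CPM of the markers found was 16.9 and 13.7 in Naive and 6.86 and 7.86 in Th1. *Igj*, the J chain of plasma cells, was entered in that list under its other symbol Jchain, so it was not matched or counted there. It was down-regulated, with 92.4 and 26.2 CPM in Naive against 0.607 and 0.742 CPM in Th1, a log2 fold change of -6.49. The part of other cells in the decreases was not tested. With the marker genes left out of the scaling, 485 genes were up-regulated and 269 down-regulated.

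Gene families were also counted by the stem of the symbol, over 199 stems with at least 8 tested genes. The largest shares of up-regulated members were 5 of 11 for Gbp, interferon-induced GTPases, 3 of 9 for Ccr, which also had 2 down-regulated members, and 6 of 18 for Tnfrsf. *Gbp2* had 42.5 and 47.1 CPM in Naive against 2377 and 3245 CPM in Th1, *Gbp3* had 19.8 and 19.3 CPM in Naive against 214 and 194 CPM in Th1, and *Gbp11* had 1.81 and 2.52 CPM in Naive against 27.1 and 9.78 CPM in Th1. The largest shares of down-regulated members were 4 of 13 for Tspan, tetraspanins that organize membrane domains, of which 2 more were up-regulated, followed by 2 of 9 for both Ccr and Hsd, hydroxysteroid dehydrogenases. *Tspan32* had 144 and 182 CPM in Naive against 16.4 and 44.5 CPM in Th1 and *Tspan9* had 8.78 and 15.5 CPM in Naive against 1.21 and 1.30 CPM in Th1, while *Tspan33* and *Tspan8* were higher in Naive replicate 1 than in Naive replicate 2, with 35.1 and 4.17 CPM in Naive against 0.121 and 0 CPM in Th1 for *Tspan33*. *Hsd11b1*, which regenerates active glucocorticoid, had 52.6 and 63.4 CPM in Naive against 14.5 and 17.9 CPM in Th1, and *Hsd17b11* had 33.4 and 30.8 CPM in Naive against 4.37 and 7.92 CPM in Th1. Of the genes named in these families, *Gbp2* and *Gbp3* kept their call with each library left out, *Tspan33* and *Tspan8* were not called without Naive replicate 1, and the others were not called without either Naive library.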

How the data were processed

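RNA was measured by poly(A) capture, Smart-seq2 and sequencing in 6 mouse libraries, of which the 2 Naive and 2 Th1 libraries were used; the Th17 libraries entered 1 alternative fit. The deposited values were raw read counts per gene, which the authors made by aligning to mm10 with HISAT2 2.2.1 and counting with HTSeq 0.13.5. The methods state that duplicate reads were removed and that default settings were used, while the published commands hold a reverse-strand option and no duplicate step, so overlapping and antisense genes may be divided incorrectly; the gene annotation is not given in the sources used here.

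Genes were filtered with filterByExpr, scaled by TMM and tested with the quasi-likelihood F-test of edgeR 4.0.16 (R 4.3.3, limma 3.58.1) on the 4 libraries, with cell type as the single term. A call required a log2 fold change over 1 in size and a Benjamini-Hochberg adjusted p under 0.01. The SE is the log2 fold change divided by the square root of F. For 1 gene, permuting 4 libraries exactly cannot give a two-sided p below 0.333. Levels are CPM on TMM-scaled totals, and totals were 18347752 to 69080017 counts. Counts and limits of detection cover counting error only, and levels were not divided by gene length. The scripts were tested on simulated data. Genes named were the markers, the 10 largest changes and 5 changes from the limit of detection in each direction, and up to 6 called members and the most abundant uncalled members of each list; other genes were added with their values in view. The rankings of the largest changes left out symbols of Gm plus digits, symbols ending in Rik, and antibody and T cell receptor segments. The members and gene lists were chosen with earlier results of these data known. Promoters were matched by symbol to RefSeq. DESeq2 1.42.0, other scalings, filters, thresholds, depths, a replicate block and leaving out each library were tried as alternatives. Some genes are not reported here.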

Additional observations from a re-analysis of the deposited data

How the results depend on the processing

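Against 488 genes called higher and 272 called lower in Th1, DESeq2 called 970 and 699, no filter on low counts gave 1132 and 852, a minimum of 10 counts in every library gave 305 and 102, an adjusted p under 0.05 gave 1019 and 780, and a test against a fold change of 2 (glmTreat) gave 255 and 125. Scaling by library size alone gave 274 higher and 194 lower and moved the median log2 fold change of all genes tested from -0.02 to -0.27, at which the medians of the lists of aminoacyl-tRNA synthetases, respiratory chain, ribosomal proteins, oxidative defence, T cell receptor signalling, endoplasmic reticulum stress, actin, channels, helper lineage factors and amino acid transport turned negative. Thinning each library to the smallest gave 376 and 166. In edgeR, scaling by relative log expression and scaling without the marker genes of other cells stayed within 1.5 times of both counts. So did a fit with all 6 libraries. These settings gave 485 to 631 higher and 269 to 383 lower. Leaving out 1 library in turn gave 86 to 892 genes higher and 32 to 530 lower, lowest without Naive replicate 1. No called gene that is named changed direction in these fits. Of named genes that were not called, the log2 fold changes of *Cd3e*, *Hk1* and *Lef1* turned to -0.18, -0.15 and -0.10 with library size alone. With 1 library left out in turn, values spanned 0 for *Cd3e* (-0.18 to 0.39), *Cd4* (-0.55 to 0.022), *Egln2* (-0.31 to 0.035), *Fos* (-1.02 to 1.38), *Hk1* (-0.17 to 0.43), *Klf2* (-1.52 to 0.55), *Lef1* (-0.37 to 0.59), *Mcm5* (-1.08 to 1.09) and *S1pr1* (-0.48 to 0.86).

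The libraries of both groups carry the numbers 1 and 2, but no source says that a number marks a shared mouse or day, and with 2 pairs the correlation of the deviations of libraries with the same number was 0.18. With the replicate number as a block, edgeR called 1252 genes higher and 970 lower, among them all 488 and 272, and DESeq2 called 1074 and 699, and of 30 mitosis genes, 1 of which was called without the block, these fits called 30 and 29 higher. Depth limited genes near 3 counts in replicate 2 of each group, which held 18608805 and 18347752 counts.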

Other observations

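Several families that no list covered were described after their values were seen. All members by symbol were counted, except in the set of synapse and neurite genes. Several proteins of the extracellular matrix were up-regulated. Of 11 laminin chains listed, 4 were tested. *Lama5*, *Lamb3* and *Lamc1* were up-regulated, which are an alpha, a beta and a gamma chain of the laminin trimer. *Lamc1* had 9.34 and 12.6 CPM in Naive against 41.3 and 40.5 CPM in Th1. *Nid2*, a nidogen that links laminin to collagen, had 1.39 and 1.70 CPM in Naive against 21.9 and 22.6 CPM in Th1, and *Fbln1*, *Vcan* and *Sparc* were up-regulated as well. Of 44 collagen chains listed, 12 were tested. *Col6a1* and *Col6a2* rose by 5.07 and 6.07 on the log2 scale from levels near 0.1 CPM, and *Thbs1* had 0.230 and 0.0486 CPM in Naive against 22.6 and 5.20 CPM in Th1. Genes this low in Naive can be tested through their Th1 levels alone. The counts therefore give no share for matrix genes to set beside the 3.75% of all genes tested that were up-regulated. *Col5a1* and *Fn1*, fibronectin, were down-regulated, both from levels that were higher in Naive replicate 1, with 5.67 and 2.09 CPM in Naive against 0.0759 and 0.186 CPM in Th1 for *Fn1*. Platelets also hold *Sparc* and *Thbs1*, and a list of megakaryocyte and platelet markers had summed CPM of 35.2 and 8.98 in Naive and 98.6 and 45.8 in Th1. All 13 tested markers had a positive log2 fold change, with a median of 1.90. Above Naive in both Th1 libraries were 9 markers, against 27.9% of all genes tested. *Ppbp*, platelet basic protein, was called, with 0.0575 and 0 CPM in Naive against 17.6 and 6.56 CPM in Th1. *Pf4*, platelet factor 4, had 3.66 and 0 CPM in Naive against 22.5 and 8.97 CPM in Th1 and was not called. The part of such cells in the matrix genes was not tested.

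Survival kinases and small surface proteins were among the abundant increases. *Pim1* and *Pim2*, serine kinases that Stat5 induces, had 176 and 218 CPM in Naive against 1399 and 1982 CPM in Th1 for *Pim1* and 35.3 and 48.6 CPM in Naive against 867 and 1004 CPM in Th1 for *Pim2*. *Ly6a*, the surface antigen Sca-1, had 87.2 and 68.1 CPM in Naive against 1660 and 1728 CPM in Th1, a log2 fold change of 4.45 (SE 0.38). Of 4 leukotriene receptor genes listed, 3 were tested, and these, *Cysltr1*, *Cysltr2* and *Ltb4r1*, were up-regulated. *Cysltr1* had 0.575 and 0.194 CPM in Naive against 38.7 and 32.6 CPM in Th1. A gene this low in Naive can be tested through its Th1 levels alone, so the count gives no share for such receptors. The chemokine receptors *Cxcr1* and *Cxcr2*, best known from neutrophils, were up-regulated with like levels in both Th1 libraries, and *Cxcr1* had 0.373 and 0.971 CPM in Naive against 89.7 and 93.0 CPM in Th1. A set of genes with known roles at synapses and neurites was chosen by hand, and not all relatives of its members were entered. Of its 22 tested genes, 8 were up-regulated and 2 were down-regulated, against 3.75% and 2.09% of all genes tested. *Gad2* and *Ncam2* had 0 counts in both Naive libraries, so Th1 alone let them be tested. The counts therefore give no share for genes of this kind. *Dnm1*, dynamin 1, had 0.0575 and 0 CPM in Naive against 1.75 and 30.8 CPM in Th1, far apart between the Th1 libraries. *Gad2* had 0 and 0 counts in Naive and 3.92 and 1.24 CPM in Th1, and its mean was at least 27.3-fold higher. Of the called genes named here, *Lama5*, *Pim2*, *Ly6a*, *Cysltr1*, *Cxcr1* and *Cxcr2* kept their call with each library left out, and each of the others was not called without Naive replicate 1.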
